A study of Mus musculus with 5 samples.

Results

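Glutamate receptors and the proteins that travel with them were followed across the cell classes in dissections of the mouse central amygdala and between fed and fasted animals. The set held 34 genes of the 22532 in the count matrices. It was taken by gene symbol, with earlier results of these data known. It comprised the AMPA receptor subunits Gria1 to Gria4, the kainate receptor subunits Grik1 to Grik5, the NMDA receptor subunits Grin1, Grin2a to Grin2d and Grin3a, and the delta receptor Grid1. It also held the metabotropic receptors Grm2, Grm3, Grm4, Grm5, Grm7 and Grm8, and the auxiliary subunits Cacng2, Cacng3, Cacng4, Cacng5, Cacng7, Cacng8, Neto1, Neto2, Cnih2, Cnih3, Shisa6 and Shisa9. Single-nucleus RNA-seq had been made from 5 libraries, 3 of fed and 2 of fasted mice, to describe the neuron types of this region and what food deprivation changes in them. Each library pooled the central amygdala of 2 mice, a male and a female. Fed replicates 1 and 2 and both fasted libraries came from C57BL6 mice (C57BL/6NRj in the study's methods) of 8 weeks with no transgene named in the labels. Fed replicate 3 came from Htr2a-Cre mice of 12 weeks whose amygdala had received a Cre-dependent AAV that carries mCherry, so that genotype, age and virus cannot be told apart from that library. The fed mice had food as normal, and the labels give 20 hours of fasting for fasted replicate 1 and 21 hours for fasted replicate 2.

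Glutamate opens ion channels of the AMPA, kainate and NMDA families, each built of 4 subunits, and acts more slowly through G protein-coupled metabotropic receptors. AMPA receptors carry most fast excitation, NMDA receptors need the Grin1 subunit and admit calcium, and kainate and metabotropic receptors also sit on axon terminals where they tune release. Stargazin-like proteins (the Cacng genes), cornichons and Shisa proteins bind AMPA receptors and set their trafficking and gating, and Neto proteins do so for kainate receptors. The central amygdala is built mainly of inhibitory neurons, which receive glutamate from the cortex, thalamus, basolateral amygdala and parabrachial nucleus.

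All AMPA subunits have a glutamine codon in the pore, called the Q/R site.
In Gria2 this codon is edited in the RNA to that of arginine, which makes channels with this subunit nearly impermeable to calcium, so the balance of Gria2 against its relatives is of interest in each cell type.
The genomic sequence around the site is shown for the 4 genes from GRCm39 with its Ensembl annotation, 5′ to 3′ on the coding strand, with the codon of the site in capitals.
Gria1: ggggccttcatgCAGcaaggatgtgac
Gria2: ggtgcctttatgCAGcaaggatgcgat
Gria3: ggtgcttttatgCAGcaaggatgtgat
Gria4: ggtgcctttatgCAAcaaggatgtgac
The Gria1 stretch lies at chr11:57133908-57133934 on the plus strand in exon 11 of 15, and the Gria2 stretch at chr3:80614206-80614232 on the minus strand in exon 11 of 16.
That of Gria3 lies at chrX:40699130-40699156 on the plus strand in exon 11 of 14, and that of Gria4 at chr9:4464125-4464151 on the minus strand in exon 12 of 17, with exons counted along 1 coding transcript a gene.
All 4 genes encode glutamine there in the genome, Gria4 with another codon than the rest.
The counts come from the 3′ ends of transcripts and from introns and do not read the editing of this codon.

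After nuclei with 500 to 8000 genes and under 0.8% mitochondrial molecules were kept, 1130 to 1734 nuclei a library remained, 7161 of 23839 barcodes, with 9763452 to 29703855 unique molecular identifiers (UMIs, counted RNA molecules) a library. Nuclei were put into classes by raw UMIs of marker genes, and 2592 of 4975 inhibitory nuclei fell into 9 classes, each called here by its gate gene. In the study Prkcd marks lateral, Calcrl capsular and Tac1 medial central amygdala neurons, and Sst neurons lie in the lateral and the medial part. It takes Foxp2 for intercalated cells, Rarb for amygdalostriatal neurons, Pde1c for neurons of the IPAC, a nucleus beside the anterior commissure, and Nkx2-1 for interneurons of the basolateral amygdala. The study counts the Foxp2, Rarb and Pde1c clusters as lying outside the central amygdala. Contrasts between classes below thus also compare central amygdala neurons with neurons of neighbouring regions. Dnah5, used here for the lateral neurons with Nts and Tac2, and Lhx6, asked for beside Nkx2-1, are gate genes that the study does not name. No class gate was passed by 43.8% of the inhibitory nuclei, and 205 more passed a combination of gates that was left out. No gate was made for the study's medial clusters Il1rapl2, the largest of them, Vdr, Drd2/Rai14 and Dlk1. Levels are given as UMIs of a gene per 1000000 UMIs of the class in a library (CPM), with means ± SD over the 5 libraries, and lists of 5 values run from fed replicates 1, 2 and 3 to fasted replicates 1 and 2. Of the markers that the gates did not use, Vipr2 was at 239 ± 68.2 CPM and Tac2 at 112 ± 27.9 CPM in the Dnah5 class, and Crh was near 0 there at 10.3 ± 8.76 CPM. Cdh9 was at 310.1 ± 76.1 CPM in the Calcrl class, but Drd2 was lower there (58.2 ± 19.0 CPM) than in the Rarb class (217 ± 31.4 CPM). Tshz1 was at 334 ± 81.1 CPM in the Foxp2 class with Drd1 at 20.6 ± 4.39 CPM, and Penk was higher in the Pde1c class (340.1 ± 117 CPM) than in the Rarb class (267 ± 32.9 CPM), so the Rarb class rests on its gate gene. In the Sst class, which held 16 to 70 nuclei a library, Ebf1 was at 877 ± 267 CPM, and Sox6, a gene of cortical-type interneurons, was at 509.7, 325, 15.3, 509 and 267 CPM and thus far lower in fed replicate 3. The excitatory class of 46 nuclei had Slc17a7 by its gate. Scrublet called 70 nuclei as doublets, which were kept.

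Over all inhibitory nuclei the 34 genes covered a wide range of levels. Introns were counted, so longer genes collect more UMIs, and levels between genes are compared here as CPM per kilobase of gene, from 5.78 kb for Cnih2 to 921.6 kb for Grm7. UMIs from 3′ ends do not grow with gene length, so this scale favours short genes. Grin1 spans 28.0 kb and Gria1 318.9 kb, for example. The order below is therefore one of this scale and not of abundance. On that scale Grin1, the obligatory NMDA receptor subunit, was highest at 18.0 ± 1.78 CPM per kb, followed by the AMPA subunits Gria2 at 11.9 ± 1.43 and Gria1 at 11.7 ± 0.791 CPM per kb. Gria2 and Gria1 did not differ beyond their spread. Next came Cacng8, a stargazin-like subunit, at 5.63 ± 0.955 CPM per kb, and Grm5, the group I metabotropic receptor of the set, at 5.14 ± 0.430 CPM per kb, which did not differ beyond their spread either. At the low end were Grm2 at 0.224 ± 0.0492, Shisa6 at 0.219 ± 0.0415 and Grin2c at 0.166 ± 0.0712 CPM per kb. Grm2, which had 3.04 ± 0.668 CPM over all inhibitory nuclei, stayed below the filter on low counts in the class contrasts.

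Whether the subunit mix differed between inhibitory classes was asked with sums of UMIs per class and library in edgeR's quasi-likelihood test, with the library as a block. The 7 classes with at least 10 nuclei in every library entered, each against the mean of the other 6 on the log scale, so that the fold is over a geometric mean. Up to the account of the small classes, the highest and the lowest class are those of these 7. Adjusted p-values are Benjamini-Hochberg values over all genes of a contrast. The library block takes out differences between libraries that all classes share. The p-values thus measure how far class differences vary from pool to pool, each a pool of 2 mice, and not between single mice. Of 231 contrasts of the 33 genes tested, 103 passed an adjusted p of 0.05, 56 higher and 47 lower, where 18.2% of the contrasts of all genes did. 28 of the 33 genes passed in at least 1 class, 18 passed in 4 or more, and 35 of the 103 contrasts were past 2-fold. The matching shares of all genes were not taken, so these counts are a description. In the Prkcd class 18 genes passed (29.5% of all genes did), 4 higher (15.1% of all genes) and 14 lower (14.3%). In the Foxp2 class 21 passed (24.4% of all genes), 15 higher (12.8%) and 6 lower (11.6%). In the Rarb class 13 passed (15.7% of all genes), 13 higher (9.46%) and 0 lower (6.26%). In the Pde1c class 13 passed (15.6% of all genes), 10 higher (9.09%) and 3 lower (6.5%). The Dnah5 class had 13 calls (16.5% of all genes), 2 higher (9.35%) and 11 lower (7.15%), and the Sst class had 13 (12.3%), 5 higher (6.89%) and 8 lower (5.43%). The Calcrl class had 12 calls (13.3% of all genes), 7 higher (7.39%) and 5 lower (5.86%). The share of these genes that passed was thus above that of all genes in each of the 7 classes. Genes with more UMIs can pass more easily, and genes of like level were not compared, so these shares are a description. The median log2 fold of the 33 genes was -0.30 in the Prkcd class and 0.20 in the Rarb class, with the median over all genes at 0.01 in both. The 5 genes that passed in none of the 7 classes were Gria2, Cacng4, Cacng7, Cacng8 and Cnih2, whose highest class mean was 1.20, 1.29, 1.41, 1.26 and 1.41 times the lowest. Of the 103 calls, 69 held in each alternative setting in which they were tested. The Sst class was not tested with gate minimums doubled.

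**Figure D1:**
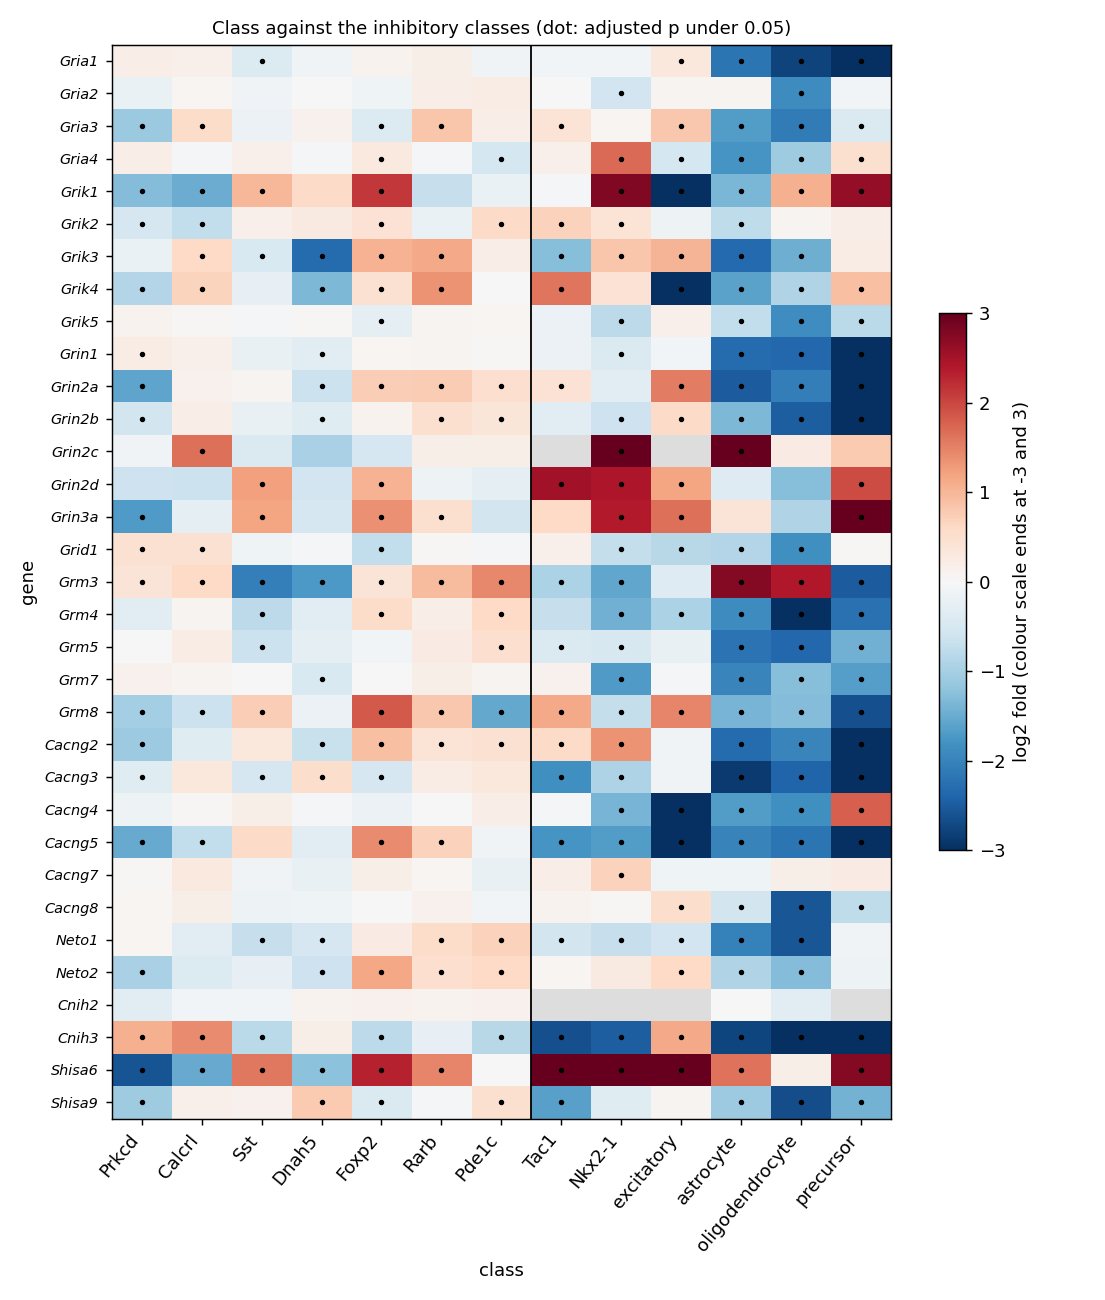
Colour gives the log2 fold of each class (columns) over the inhibitory classes for 33 genes (rows), with a dot where the adjusted p was under 0.05 and grey where the gene was not tested or had 0 UMIs in the class. The line divides the 7 inhibitory classes, each set against the other 6, from the small and non-inhibitory classes, each set against all 7. The Prkcd column has 14 lower and the Foxp2 column 15 higher genes.

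Among AMPA subunits Gria3, which like Gria1 and Gria4 forms calcium-permeable channels where Gria2 is absent, differed most between the 7 classes. It was at 315, 358, 421, 397 and 402 CPM in the Prkcd class, the lowest of the 7 classes in each library, and at 1126, 1259, 998, 1138 and 1205 CPM in the Rarb class. The ranges of these 2 classes did not overlap. Gria3 was lower in the Prkcd class by a log2 fold of -1.11 ± 0.12 (SE; adjusted p = 2.02e-11) and higher in the Rarb class (0.84 ± 0.10, adjusted p = 9.64e-10) and the Calcrl class (0.55 ± 0.10, adjusted p = 3.89e-05). Gria4 was at 518, 791, 748, 528 and 791 CPM in the Pde1c class, again the lowest of the 7 in each library, with a log2 fold of -0.52 ± 0.10 (adjusted p = 3.64e-05). Gria1 ranged from 3066 ± 422 CPM in the Sst class to 4437 ± 285 CPM in the Prkcd class, where it was highest in all 5 libraries without passing the test. Gria2 stayed between 1346 ± 159 and 1614 ± 238 CPM, in the Prkcd and Rarb classes. Of the 4 genes, Gria3 and Gria4 thus carried the differences between classes that held in each setting.

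**Figure D2:**
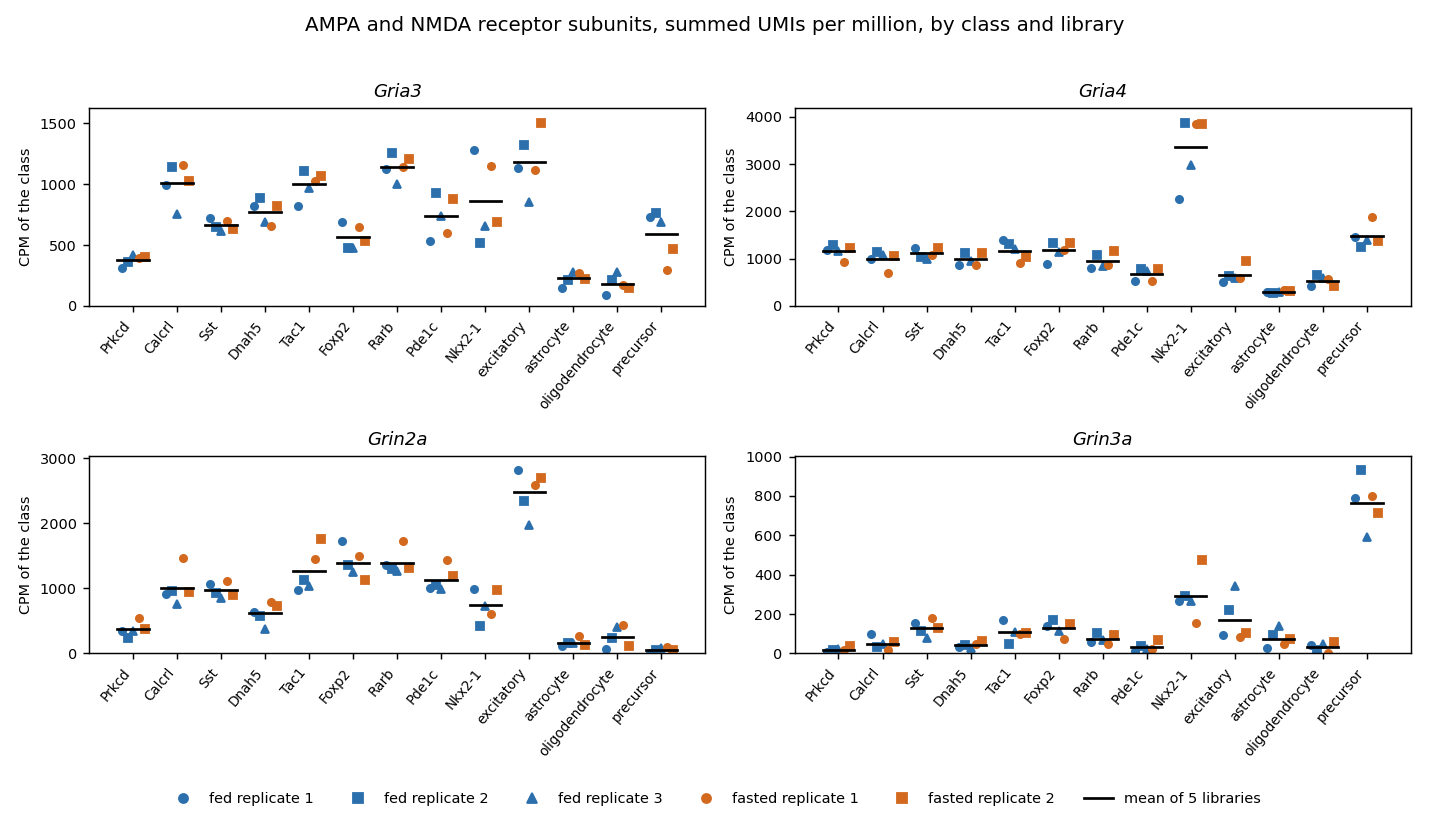
Each point is the level (CPM) of 1 library in a class, by colour fed or fasted and by shape the replicate number, with a bar at the mean of 5 libraries. Gria3, Grin2a and Grin3a lie low in the Prkcd class, Gria4 is lowest of the gated inhibitory classes in the Pde1c class and highest in the Nkx2-1 class, and Grin3a is highest in oligodendrocyte precursors.

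NMDA receptors pair Grin1 with Grin2 subunits that set their kinetics, or with Grin3a, which lowers their calcium permeability. Grin2a was at 349, 241, 346, 552 and 372 CPM in the Prkcd class, the lowest of the 7 in every library, against means of 1394 ± 228 CPM in the Foxp2 and 1391 ± 189 CPM in the Rarb class. Its log2 fold was -1.57 ± 0.14 in the Prkcd class (adjusted p = 9.34e-14) and -0.65 ± 0.13 in the Dnah5 class (adjusted p = 8.01e-05), with higher values in the Rarb (0.77 ± 0.11), Foxp2 (0.75 ± 0.11) and Pde1c (0.50 ± 0.12) classes. Grin2b, the other abundant Grin2 subunit, was lower there too, with a log2 fold of -0.55 ± 0.11 in the Prkcd class (adjusted p = 5.09e-05). Grin3a was at 7.60, 14.8, 20.4, 15.3 and 40.0 CPM in the Prkcd class and at 152, 114, 76.3, 179 and 129 CPM in the Sst class. The Prkcd class was lowest of the 7 for Grin3a in all 5 libraries, and no Prkcd value reached the Sst range. The log2 folds of Grin3a were -1.71 ± 0.25 in the Prkcd class (adjusted p = 1.71e-07), 1.38 ± 0.18 in the Foxp2 class and 1.19 ± 0.20 in the Sst class (adjusted p = 1.54e-05). In the Sst class Grin3a was lowest in fed replicate 3, as was Sox6, given above. Whether interneurons gated into the Sst class add to its folds, for Grin3a and the other genes, was not tested. Grin3a overlaps Ppp3r2 on the same strand, so its UMIs could be shared with that gene. Grin2d, a subunit of slow channels, stayed at 8.27 ± 6.02 to 27.1 ± 12.2 CPM in class means. Grin1 varied little, from 429.8 ± 65.5 CPM in the Dnah5 class, where it was lower (log2 fold -0.33 ± 0.09), to 615 ± 63.7 CPM in the Prkcd class. Grin2c, best known from cerebellar granule cells and astrocytes, was at no more than 3.54 ± 2.45 CPM in these classes.

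The kainate subunits Grik1, Grik2 and Grik3 form channels on their own, and Grik4 and Grik5 add high affinity. Grik3 was scarce in the Dnah5 class, at 30.7, 27.9, 51.0, 63.3 and 57.8 CPM, the lowest of the 7 in each library, and reached 363, 338, 365, 426 and 298 CPM in the Rarb class. Its log2 fold was -2.30 ± 0.17 in the Dnah5 class (adjusted p = 8.86e-16), 1.13 ± 0.11 in the Rarb class, 1.04 ± 0.12 in the Foxp2 class and 0.60 ± 0.13 in the Calcrl class. Grik4 followed in part, with 518, 401, 436, 430.2 and 355 CPM in the Rarb class, the highest of the 7 in all 5 libraries. It was higher there (1.35 ± 0.13, adjusted p = 6.65e-12) and lower in the Dnah5 (-1.36 ± 0.18) and Prkcd (-0.87 ± 0.17) classes. Grik1 was at 164, 186, 425, 336 and 280.5 CPM in the Foxp2 class, with a log2 fold of 2.13 ± 0.22 (adjusted p = 3.05e-11), and at class means of 33.4 ± 21.7 to 141 ± 86.1 CPM in the other 6. Grik2 was lower in the Calcrl class by a log2 fold of -0.73 ± 0.11 (adjusted p = 2.73e-06), the lowest of the 7 in each library, and higher in the Pde1c class (0.59 ± 0.10). Grik5 stayed between 239 ± 45.1 and 305 ± 40.5 CPM. Grid1, a delta receptor that binds cerebellins and is not opened by glutamate, was higher in the Prkcd class (0.47 ± 0.08) and lower in the Foxp2 class (-0.75 ± 0.09, adjusted p = 2.30e-09).

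The metabotropic receptors of group I (Grm5) couple to phospholipase C, and those of groups II (Grm2, Grm3) and III (Grm4, Grm7, Grm8) lower cyclic AMP and often act on terminals. Grm8 had the widest range of the tested metabotropic receptors, 8.66 times from the lowest to the highest class mean, at 1667, 2106, 1621, 1215 and 1877 CPM in the Foxp2 class and 109, 205, 247, 126 and 293 CPM in the Pde1c class. These were the highest and the lowest of the 7 in each of the 5 libraries. The log2 fold was 1.84 ± 0.13 in the Foxp2 class (adjusted p = 2.78e-17), -1.55 ± 0.18 in the Pde1c class (adjusted p = 1.46e-09), -1.02 ± 0.16 in the Prkcd class, 0.80 ± 0.13 in the Rarb class and 0.73 ± 0.14 in the Sst class. Grm3 was at 497, 301, 506, 357 and 455 CPM in the Pde1c class against 29.3, 23.6, 64.9, 75.0 and 81.3 CPM in the Sst class and 53.1, 75.1, 98.3, 50.6 and 63.6 CPM in the Dnah5 class. All Pde1c values lay above all values of the other 2 classes. Its log2 folds were 1.44 ± 0.13 (adjusted p = 2.38e-12), -2.05 ± 0.20 (adjusted p = 7.25e-12) and -1.73 ± 0.17 (adjusted p = 9.83e-12), and 0.96 ± 0.12 in the Rarb class. Grm5 had a smaller range, lowest in the Sst class (2257 ± 236 CPM, log2 fold -0.64 ± 0.12) and highest in the Pde1c class (4042 ± 351 CPM), both in each library. Grm7, the receptor of active zones, was lower in the Dnah5 class (-0.46 ± 0.11, adjusted p = 0.00142), the lowest of the 7 in each library. Grm4 stayed at class means of 40.4 ± 14.5 to 88.5 ± 33.5 CPM.

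**Figure D3:**
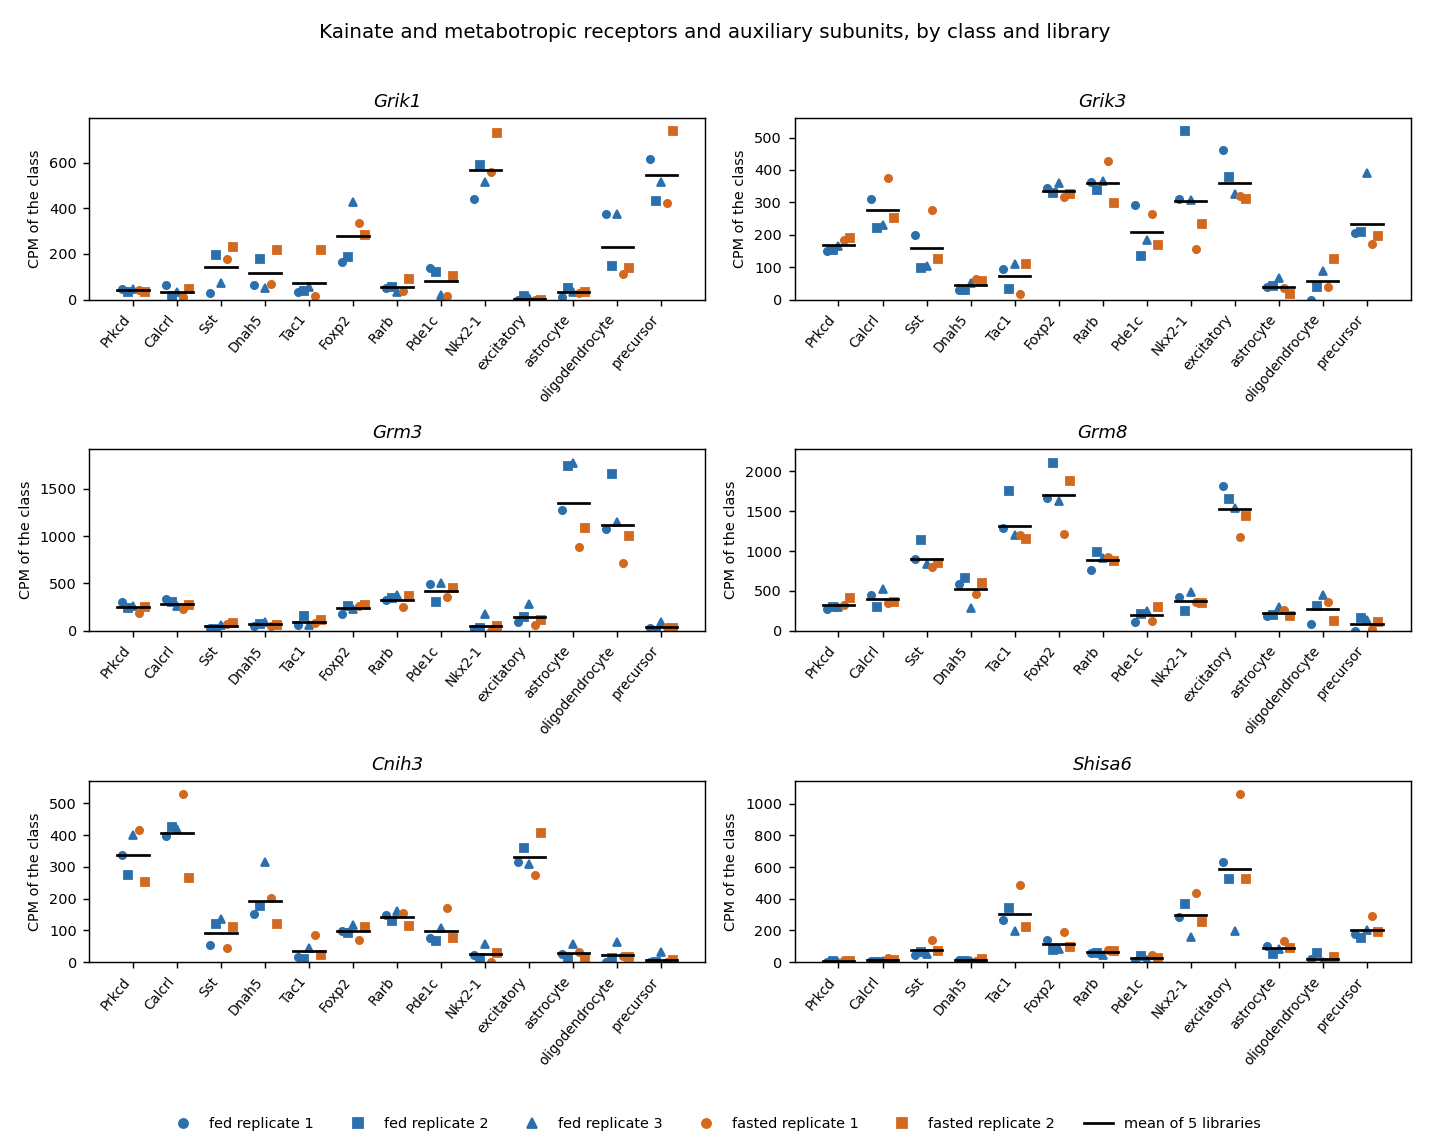
Points are levels (CPM) of single libraries by class, coloured by feeding and shaped by replicate number, with a bar at the mean of 5 libraries. Grik3 is low in the Dnah5 class, Grm8 is highest of the 7 tested inhibitory classes in the Foxp2 class and lowest in the Pde1c class, Cnih3 is highest of them in the Calcrl class, and Grm3 is above every neuronal class in astrocytes and oligodendrocytes.

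The widest range of class means among the 33 tested genes was that of an auxiliary subunit. Shisa6, which keeps AMPA receptors from desensitising and holds them at the synapse, was at 142, 77.6, 81.1, 191 and 94.3 CPM in the Foxp2 class and 0, 5.30, 2.91, 11.5 and 8.52 CPM in the Prkcd class. The mean of the Foxp2 class was 20.7 times that of the Prkcd class, and the Foxp2 class was highest of the 7 in all 5 libraries. Its log2 folds were 2.31 ± 0.16 in the Foxp2 class (adjusted p = 1.16e-16), 1.59 ± 0.20 in the Sst class, 1.46 ± 0.16 in the Rarb class and -2.59 ± 0.30 in the Prkcd class (adjusted p = 7.53e-10). Shisa9, a relative in the same family, was instead highest in the Dnah5 class (1145 ± 259 CPM, log2 fold 0.79 ± 0.09) and lower in the Prkcd class (-1.07 ± 0.11). Cnih3, a cornichon that slows the closing of AMPA receptors, was at 396, 427, 419, 529 and 265 CPM in the Calcrl class, the highest of the 7 in each library, and at 336, 275, 399, 418 and 253 CPM in the Prkcd class. Both classes were higher, by 1.42 ± 0.12 (adjusted p = 3.19e-13) and 1.07 ± 0.12 (adjusted p = 3.28e-10), and the Foxp2 class was lower (-0.79 ± 0.15). Of the stargazin-like genes, Cacng2 and Cacng5 were lower in the Prkcd class (-1.08 ± 0.14 and -1.50 ± 0.27) and higher in the Foxp2 class (0.90 ± 0.11 and 1.42 ± 0.18), and Cacng3 was higher in the Dnah5 class (0.52 ± 0.11, adjusted p = 3.53e-04). Cacng4, Cacng7 and Cacng8 had class means of 109 ± 28.7 to 141 ± 34.9, 59.6 ± 16.5 to 84.0 ± 10.1 and 127 ± 19.9 to 161 ± 28.3 CPM. The kainate partner Neto2 was lower in the Prkcd class (-0.98 ± 0.16) and higher in the Foxp2 class (1.15 ± 0.13, adjusted p = 2.34e-10), and Neto1 was higher in the Pde1c class (0.69 ± 0.11, adjusted p = 1.36e-06). Cnih2 stayed near 8.57 ± 5.25 to 12.1 ± 5.31 CPM, on a gene with a neighbour on the opposite strand. Over the 7 class means, as a description, the levels of Cacng5 and Shisa6 had a Pearson r of 0.987, those of Grin3a and Cacng5 0.936, those of Grm3 and Grm5 0.928 and those of Grik1 and Grid1 -0.910, all points resting on the same 5 libraries. These pairs were picked as extremes among the many pairs of these genes. How far r runs by the number of pairs alone was not tested, so the values are not read as shared expression.

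The classes with 5 or more nuclei a library but under 10 in some, Tac1, Nkx2-1, excitatory and precursor, were set against the mean of the 7 inhibitory classes, a comparison added after the levels had been seen. In the Nkx2-1 class 25 of 32 genes tested passed, 10 higher and 15 lower (31.2% of all genes, 15.4% higher and 15.8% lower). Gria4 was at 2272, 3875, 2977, 3847 and 3845 CPM there, above every value in the other inhibitory classes, with a log2 fold of 1.69 ± 0.10 (adjusted p = 3.30e-24). Grik1 (2.77 ± 0.22), Grin2d (2.43 ± 0.29), Grin3a (2.39 ± 0.20), Shisa6 (3.38 ± 0.18) and Cacng2 (1.34 ± 0.14) were higher too, and Cnih3 (-2.48 ± 0.29) and Grm7 (-1.70 ± 0.15) lower. In the Tac1 class 16 of 32 genes passed, 8 higher and 8 lower (13.1% of all genes, 6.18% higher and 6.89% lower). Shisa6 was at 265, 341, 195, 489 and 220.1 CPM there (log2 fold 3.33 ± 0.21, adjusted p = 3.18e-21), Grin2d (2.51 ± 0.34) and Grik4 (1.60 ± 0.17) were higher, and Cnih3 (-2.65 ± 0.35), Cacng3 (-1.84 ± 0.24) and Shisa9 (-1.62 ± 0.18) lower. In the excitatory class 20 of 32 genes passed, 12 higher and 8 lower (27.8% of all genes, 14.2% higher and 13.6% lower). Shisa6 (4.38 ± 0.16), Grin2a (1.53 ± 0.13), Grm8 (1.47 ± 0.14) and Grik3 (1.02 ± 0.18) were higher there and Cacng4 (-4.01 ± 0.45), Grik4 (-3.73 ± 0.41) and Grik1 (-3.44 ± 0.73) lower, on 7, 14 and 8 UMIs in all. Shisa6 thus had its highest neuronal mean in excitatory nuclei, at 631, 522, 198, 1061 and 525 CPM, with the spread between libraries that 5 to 17 nuclei a library give.

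The subunit mix was also taken within each library as the log2 ratio of summed UMIs of 14 pairs of relatives in the 9 inhibitory classes, which carries the lengths of both genes and is read between classes only. Of 126 combinations of pair and class, 7 lay beyond all other inhibitory classes in all 5 libraries, which is a description without a test. The log2 ratio of Gria3 to Gria2 was lowest in the Prkcd class, at -1.99, -1.93, -1.45, -1.80 and -1.97. That of Gria4 to Gria2 was lowest in the Pde1c class (-1.56, -1.04, -0.82, -1.49 and -1.22) and highest in the Nkx2-1 class (1.09, 2.28, 1.34, 1.80 and 1.93). Grin3a to Grin1 was lowest in the Prkcd class (-6.19, -5.15, -4.89, -5.46 and -3.85), and Grik1 to Grik2 was highest in the Nkx2-1 class (-1.46, -2.82, -1.12, -1.08 and -1.55). Grm8 to Grm7 was highest in the Foxp2 class (-0.78, -0.75, -1.19, -0.91 and -0.92), and Shisa9 to Shisa6 was lowest in the Tac1 class (-0.88, -0.74, 0.52, -2.18 and 0.60). With gate minimums doubled 0 of these 7 combinations lay apart in all 5 libraries, and with nuclei thinned to 4000 UMIs 5 of the 7 did, without Gria3 to Gria2 in the Prkcd class and Shisa9 to Shisa6 in the Tac1 class. The ratios had no minimum of nuclei, and with gate minimums doubled classes with too few nuclei for a test, such as Sst, were still compared. That count therefore does not show whether the 7 combinations depend on the gates.

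Glial nuclei had fewer UMIs than neurons and also hold free neuronal RNA, which was gauged by Snhg11, Syt1, Rbfox3 and Celf4, genes of neurons. The median of these 4 genes was at 13.1 to 27.8% of the level in inhibitory nuclei of the same library in astrocytes, 7.15 to 36.5% in oligodendrocytes and 7.76 to 18.1% in precursors. A gene at such a percentage was read as background. A gene was called above the background only where it exceeded the highest of the 4 genes in the same library, which is a stricter limit than the median. In fed replicate 3 Snhg11 stood at 64.0% in astrocytes and 96.8% in oligodendrocytes. The share of all genes above these 4 was not counted, so the counts of members above them are a description only. In astrocytes 7 of 34 genes lay above all 4 of these genes in all 5 libraries, and Grin2c and Grm3 also lay above the inhibitory nuclei. Grin2c was at 511, 634, 390.1, 517 and 557 CPM in astrocytes and at 3.08 ± 1.32 CPM in inhibitory nuclei, a log2 fold of 8.46 ± 0.17 over the 7 inhibitory classes (adjusted p = 1.90e-41). Grm3, the group II receptor long known in astrocytes, was at 1275, 1735, 1775, 890.2 and 1088 CPM in astrocytes and 1076, 1654, 1149.5, 719 and 1004 CPM in oligodendrocytes, with log2 folds of 2.75 ± 0.11 (adjusted p = 1.37e-27) and 2.41 ± 0.14 (adjusted p = 1.14e-20). All of these values exceeded the highest inhibitory class. Gria2 in astrocytes was at 108, 126, 99.9, 108 and 117% of its inhibitory level, where Gria1 was at 19.6 to 30.4%, above all 4 of the neuronal genes in 0 of 5 libraries. Grik5, Cacng7, Cacng8 and Shisa6 were the others above the background in astrocytes, at 59.8 to 74.2%, 72.9 to 111%, 54.8 to 79.1% and 71.2 to 166% of the inhibitory level. Grid1, Shisa9 and Grik2 were at 51.9 to 61.8%, 50.5 to 62.8% and 39.7 to 60.6% in astrocytes. They exceeded all 4 neuronal genes in 4 of 5 libraries and lay above the range of the median. Grin3a, at 20.9 to 116%, also exceeded them in 4 of 5 libraries but reached into that range. In oligodendrocytes Grm3, Grik1 and Cacng7 lay above the background in all 5 libraries. Grik2, Gria4 and Grm7, at 60.2 to 150%, 32.2 to 55.9% and 27.4 to 67.1% there, did so in 4 of 5. Gria4 and Grm7 reached into the range of the median. By the test 28 of 33 genes passed in astrocytes, 3 higher and 25 lower (60.4% of all genes, 30.7% higher and 29.7% lower). In oligodendrocytes 26 passed, 2 higher and 24 lower (44.7% of all genes, 19.5% higher and 25.2% lower), where the median log2 fold over all genes was -0.13. Genes near the background cannot be ranked by these folds.

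Oligodendrocyte precursors, known to receive synapses from neurons, held 19 of the 34 genes above the background in all 5 libraries, on 58 nuclei. The share of all genes was not counted here either, so whether 19 of 34 is unusual cannot be read from it. Grin3a was at 792, 930.3, 593, 801 and 714 CPM there, above each inhibitory class, with a log2 fold of 3.63 ± 0.22 (adjusted p = 3.13e-23). Grik1 (2.63 ± 0.31), Cacng4 (1.79 ± 0.20) and Shisa6 (2.75 ± 0.30) were above the inhibitory nuclei in all 5 libraries as well. Gria2, Gria3 and Gria4 were at 73.7 to 115%, 34.3 to 89.5% and 89.7 to 186% of the inhibitory level, and Gria1 was at the background with 6.39 to 11.3%. The NMDA subunits Grin1, Grin2a and Grin2b were at 5.19 to 17.0%, 0 to 9.20% and 2.97 to 15.0% of the inhibitory level. Grin3a was thus the NMDA subunit above the background in precursors with most UMIs, beside Grin2d, which rested on 20 UMIs in all. By the test 24 of 32 genes passed in precursors, 7 higher and 17 lower (36.1% of all genes, 15.2% higher and 20.9% lower), where the median log2 fold over all genes was -0.19.

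**Figure D4:**
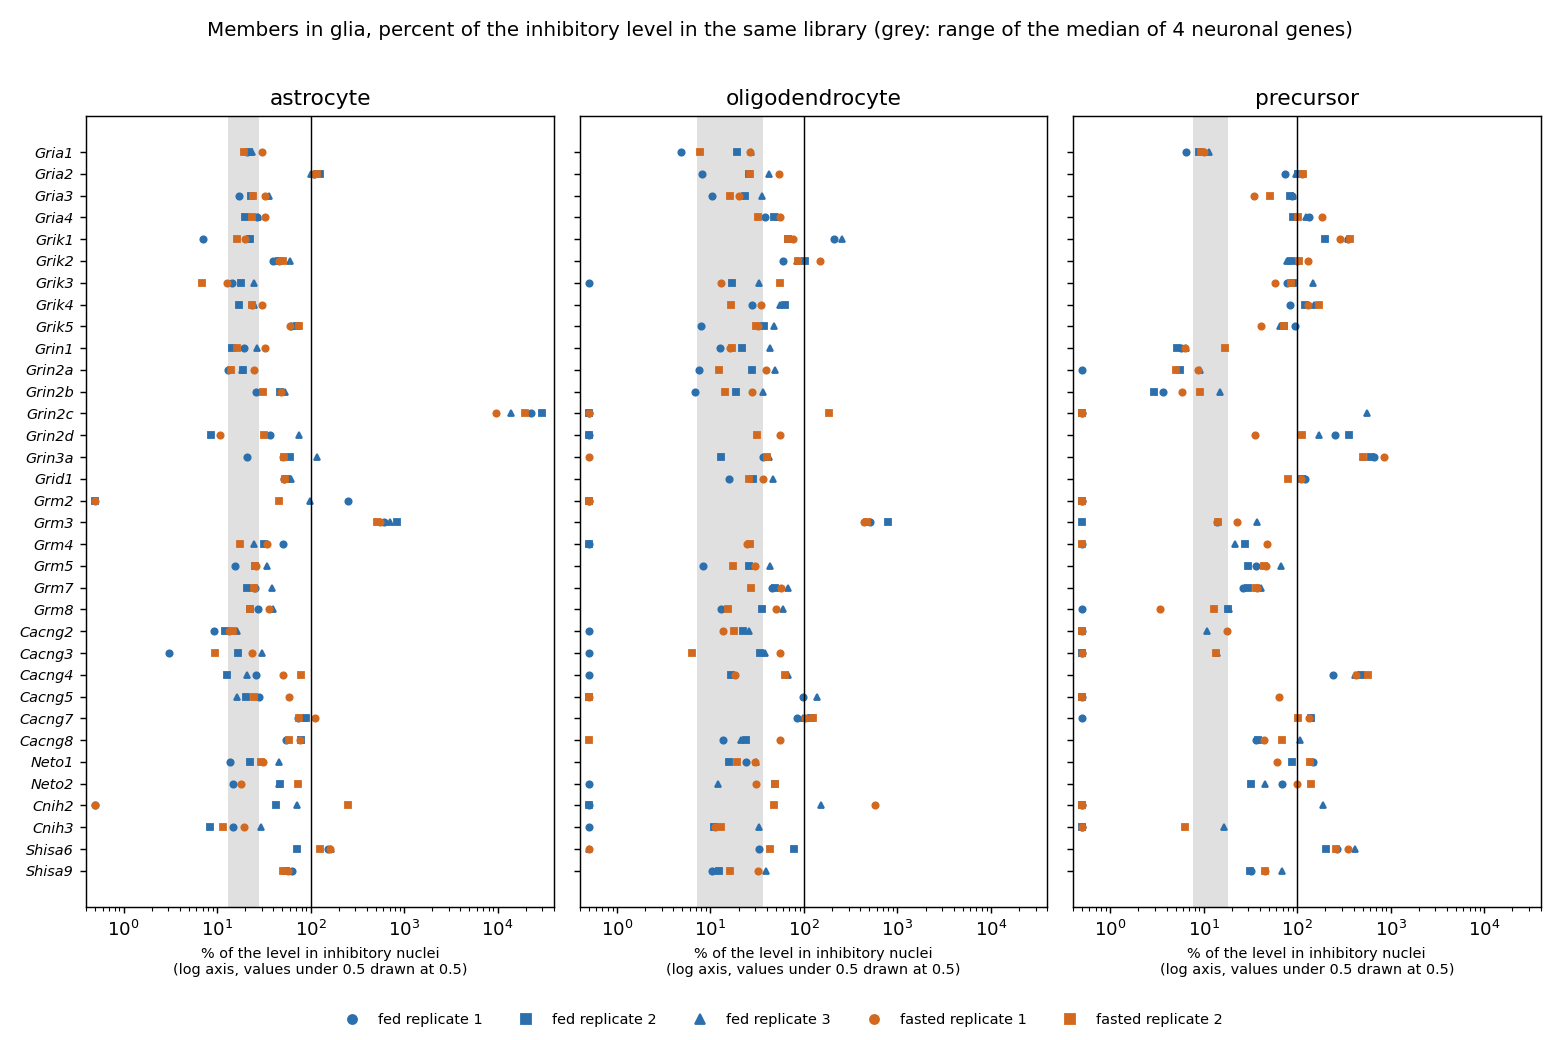
Each point is the level of a gene in a glial class of 1 library as a percentage of its level in the inhibitory nuclei of that library, on a log axis, with values under 0.5% drawn at 0.5% and a black line at equal levels. Grey marks the range over libraries of the median of 4 neuronal genes. The counts in the text use the highest of the 4 genes in each library instead, which is not drawn. Grin2c and Grm3 in astrocytes, Grm3 in oligodendrocytes, and Grik1, Grin3a, Cacng4 and Shisa6 in precursors lie right of the line in all 5 libraries.

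Whether fasting changed the receptors was asked in 7 inhibitory classes, astrocytes and oligodendrocytes with 3 fed and 2 fasted libraries. Of 259 pairs of gene and class tested, 0 passed an adjusted p of 0.05 by edgeR's quasi-likelihood test, where 0.118% of the comparisons of all genes did, and 30 (11.6%) had an unadjusted p under 0.05 against 5.22% of all genes. In 228 pairs (88.0%) the fitted fold was within 1.5-fold, with a median SE of 0.23 on the log2 scale. The smallest adjusted p was 0.264. By class, the share of all genes that passed was 0.15% in the Prkcd, 0.0128% in the Calcrl, 0.276% in the Dnah5, 0.0408% in the Foxp2, 0.00973% in the Rarb and 0.132% in the Pde1c class, 0.456% in astrocytes and 0.0% in the Sst class and oligodendrocytes. DESeq2 called 0 of the pairs too, and over all inhibitory nuclei 0 of 34 genes passed (0.00744% of all genes), with 1 under an unadjusted p of 0.05. The largest numbers of genes under that p were 8 of 32 in the Dnah5 class (6.86% of all genes), 7 of 29 in the Prkcd class (6.33%) and 5 of 31 in the Sst class (5.25%).

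The replicate numbers were taken to mark shared preparation batches, replicates 1 together and replicates 2 together, which the labels do not state. With the batch as a block 7 pairs passed (0.688% of all genes). By class, 2 were in the Prkcd (1.15% of all genes), 2 in the Sst (0.766%), and 1 each in the Dnah5 (1.68%), Foxp2 (0.734%) and Rarb (0.525%) classes, with 0 in the Calcrl (0.0%) and Pde1c (0.363%) classes, astrocytes (0.0%) and oligodendrocytes (0.688%). In that fit fed replicate 3 had a batch of its own and so added nothing to the fold, which rests on 2 fed and 2 fasted libraries. Hardly any libraries were then left to gauge the spread of a gene. The SEs and p-values with the block thus lean largely on the spread shared across genes. In the Sst class fed replicate 1 held 16 nuclei with 170687 UMIs in all, so its levels of scarce genes rest on few UMIs. Grik4 in the Sst class was at 58.6, 59.8 and 160.3 CPM in the fed and 365 and 222 CPM in the fasted libraries. The groups did not overlap, and the log2 fold of fasted over fed was 2.06 ± 0.24 with the block (adjusted p = 4.33e-06) and 1.51 ± 0.36 without it (adjusted p = 0.332). Without the block it also passed when fed replicate 3 was left out (2.21, adjusted p = 0.0308). That fit uses the same 2 fed and 2 fasted libraries as the blocked fold and is no separate support. Grm3 in the same class was at 29.3, 23.6 and 64.9 CPM fed and 75.0 and 81.3 CPM fasted, with a blocked log2 fold of 1.61 ± 0.36 (adjusted p = 0.0217; without the block 0.856). Sox6, given above for this class, was low in fed replicate 3 alone, and its part in these values was not tested. In the Prkcd class Grin2a was at 349, 241 and 346 CPM fed and 552 and 372 CPM fasted, with a blocked log2 fold of 0.62 ± 0.17 (adjusted p = 0.0445; without the block 0.655). Cacng4 there was at 158, 118 and 153 CPM fed and 99.7 and 66.2 CPM fasted, with -0.78 ± 0.21 (adjusted p = 0.0357; without the block 0.297). For neither gene did the groups overlap. Grik3 in the Dnah5 class, where it is scarce, was at 30.7, 27.9 and 51.0 CPM fed and 63.3 and 57.8 CPM fasted, with 1.01 ± 0.29 (adjusted p = 0.0350; without the block 0.590). Neto2 in the Rarb class was at 109, 133 and 111 CPM fed and 71.9 and 86.1 CPM fasted, with -0.63 ± 0.14 (adjusted p = 0.0382; without the block 0.566). Grik1 in the Foxp2 class overlapped between groups, at 164, 186 and 425 CPM fed and 336 and 280.5 CPM fasted, since fed replicate 3 was highest (blocked 0.68 ± 0.17, adjusted p = 0.0224; without the block 1.00). Over all inhibitory nuclei 1 gene passed with the block, Neto2 (-0.43 ± 0.09, adjusted p = 4.56e-04; 2.99% of all genes), with overlapping groups.

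**Figure D5:**
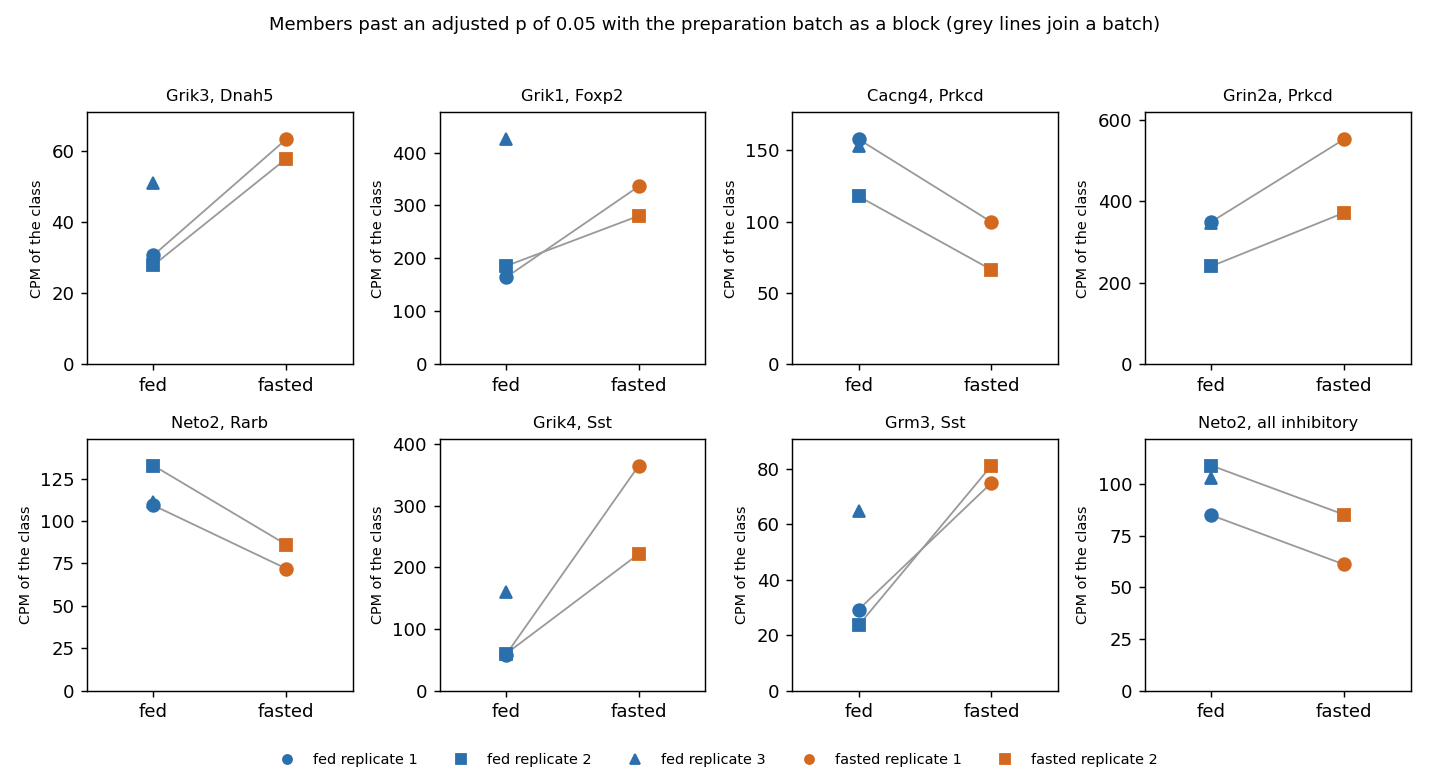
Levels (CPM) of the genes that passed an adjusted p of 0.05 with the batch as a block, in fed and fasted libraries. Grey lines join libraries taken as 1 batch. Fed replicate 3 has no partner, and the groups overlap in the panels of Grik1 in the Foxp2 class and Neto2 over all inhibitory nuclei.

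Whether the fasted effect differed between the 7 inhibitory classes was tested as an interaction of class and feeding, with the library as a block. 0 of 32 genes passed an adjusted p of 0.05 by edgeR (0.0527% of all genes), 8 (25.0%) had an unadjusted p under 0.05 against 6.29% of all genes, and Grik4 had the smallest adjusted p, 0.203. With the likelihood ratio test, the test of the study, 1 gene passed, Grik4, and with no filter on low counts 5 passed, Grik1, Grik4, Grin2a, Grin3a and Grm4.

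Other genes of the glutamate synapse were followed by a list of 62 scaffolds, kinases, transporters, organizers and further receptors, of which 46 were tested between the 7 classes. Their shares are set beside those of all genes without matching for level, as a description. In the Prkcd class 8 were higher and 13 lower (45.7% of the 46, against 29.5% of all genes), among them the scaffold Shank2 (log2 fold 1.29) and the kinase subunits Camk2d (1.02), Camk2b (-1.39) and Camk2a (-0.96). In the Rarb class 13 were higher and 2 lower (32.6% against 15.7%), and in the Pde1c class 13 higher and 6 lower (41.3% against 15.6%), with the scaffold Homer2 at -1.59 and Tanc1 at 1.55. The Foxp2 class had 5 higher and 10 lower (32.6% against 24.4%), the Dnah5 class 5 and 8 (28.3% against 16.5%), and the Sst class 3 and 5 (17.4% against 12.3%). The Calcrl class had 2 and 2, and its share of 8.70% was below the 13.3% of all genes. In astrocytes 6 were higher and 34 lower (87.0% against 60.4%), led by the transporter Slc1a2 (6.06) and glutamine synthetase, Glul (5.07), and in oligodendrocytes 6 were higher and 32 lower (82.6% against 44.7%). Slc1a2 was also higher in the Dnah5 (1.79) and Sst (1.54) classes. Of the smaller classes, Tac1 had 5 higher and 11 lower of 45 tested (35.6% against 13.1% of all genes), Nkx2-1 11 and 17 (62.2% against 31.2%), excitatory 13 and 10 (51.1% against 27.8%) and precursor 8 and 21 (64.4% against 36.1%). Between fed and fasted libraries 0 genes of this list passed an adjusted p of 0.05 in any class by edgeR without the block, and the smallest values were those of Tanc1 (log2 fold 1.17, adjusted p = 0.140) and Glul (1.70, adjusted p = 0.140) in the Rarb class. With the batch as a block 5 of 370 pairs of listed gene and class passed by edgeR (1.35%, against 0.688% of all genes), all of them higher in fasted libraries. They included Tanc1 (log2 fold 1.04, adjusted p = 0.00286) and Glul (1.498, adjusted p = 0.0224) in the Rarb class, Slc1a2 in the Foxp2 class (1.26, adjusted p = 0.00305) and Dapk1 in the Dnah5 class (0.51, adjusted p = 0.0303). Over all inhibitory nuclei 3 of 53 listed genes passed with the block (5.66%, against 2.99% of all genes), Glul at 1.26, Tanc1 at 0.75 and Dapk1 at 0.39. Glul and Slc1a2 were the genes of the list that led in astrocytes, and the part of astrocyte RNA in their fed and fasted values was not tested. These genes are named because they passed, and were chosen after their values were seen. The study itself reports Dapk1 and Tanc1 as raised by fasting in its lateral Nts and Tac2 neurons, from these same libraries. Both were on the list with that known, so their passing is no independent evidence. The shares of listed genes that passed with the block are therefore not read as an excess over all genes.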

How the data were processed

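Nuclei of the mouse central amygdala were profiled with 10x 3′ v3.1 chemistry, and the authors deposited raw UMI counts per gene and barcode for 5 libraries, made by Cell Ranger with intronic reads included. The file headers name Cell Ranger 5.0.0 and the study GRCm39, whereas the submitters' processing notes name Cell Ranger 2.1.1 and mm10; the gene lists were used as deposited. The 34 genes, the list of 62 synapse genes and the gates were chosen with earlier results of these data known.

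Nuclei with 500 to 8000 genes and under 0.8% mitochondrial UMIs were kept, and those that Scrublet (scanpy 1.11.5) called doublets (0.978%) were counted but not removed. At most 1 barcode was shared by any pair of libraries. Glial gates needed at least 3 UMIs and 10 per 10000 UMIs over a marker list. Inhibitory nuclei had at least 2 UMIs of Gad1, Gad2 and Slc32a1 and at most 1 of Slc17a7. Class gates needed a minimum of 1 to 3 UMIs of the gate gene and, except for Nkx2-1 with Lhx6, also a minimum rate. Per 10000 UMIs of the nucleus this rate was 10 for Pde1c, 6 for Foxp2 and 5 for Rarb. It was 1.5 for Dnah5 and Prkcd and 1 for Calcrl, Sst and Tac1. Where gate minimums were doubled, the rates of the class gates were doubled too. The Nkx2-1, Pde1c, Foxp2 and Rarb gates came first, in that order, whatever other class gates a nucleus passed. Of the rest, Prkcd with Calcrl was put in the Calcrl class, Sst with Dnah5 in the Dnah5 class and Sst with Tac1 in the Tac1 class. The 205 nuclei with any other combination of the remaining gates were left out, as were 274 that passed conflicting main gates. A further 1126 nuclei passed no main gate, unevenly between libraries, from 99 in fasted replicate 2 to 516 in fasted replicate 1. The 76 nuclei gated as microglia or endothelium were counted and not described.

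Counts were summed per class and library and tested in edgeR 4.0.16 (R 4.3.3) with TMM normalization, filterByExpr, the quasi-likelihood test and Benjamini-Hochberg adjustment over all genes, at 0.05. Summed depth ran from 34099 UMIs (a precursor library) to 3192163 (a Rarb library) among the tested classes. Subunit ratios had 0.5 UMI added to each gene. Genes were named by passing the adjusted p of 0.05, and synapse genes among the 5 smallest p-values of a comparison. A few gene results are not reported here. The settings changed in turn were RLE factors, DESeq2 1.42.0, the likelihood ratio test, each library left out, no filter on low counts, at least 1500 genes a nucleus, doublets removed, gate minimums doubled, nuclei thinned to 4000 UMIs, fed libraries only, and the replicate number as a block.

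The replicate numbers were taken to pair fed and fasted libraries by preparation batch. The study's supplement states that its libraries Fed_1 and Fast_1 shared a batch, as did Fed_2 and Fast_2, and that Fed_0 had its own. It does not link these names to the replicate numbers of the labels, so the match by number is an assumption. Fed replicate 3 was taken as the library alone by elimination. Deviations from the group means correlated at 0.345 and 0.515 between libraries of the same number over all inhibitory nuclei. The values were 0.0762 to 0.358 in the inhibitory classes, -0.00170 and 0.137 in astrocytes and -0.0736 and 0.155 in oligodendrocytes. Libraries of unlike number were not compared. Median UMIs a nucleus were 8326 (fed) and 6608 (fasted) in replicates 1 and 14886 and 16367 in replicates 2. Batch and depth cannot be told apart by these correlations, which are no check of the pairing. In counts simulated for the Dnah5 class, 94.5% of 200 genes with a 4-fold fed and fasted difference were recovered, 91% in the Rarb class and 77% in oligodendrocytes. Of 200 genes with a 2-fold difference between classes 90.5% were recovered. The false share of the calls was 3.57% in the Dnah5 class, 9% in the Rarb class, 3.75% in oligodendrocytes and 6.70% between classes. Fed and fasted differences smaller than 4-fold were not simulated.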

Additional observations from a re-analysis of the deposited data

How the results depend on the processing

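Between the 7 inhibitory classes the number of calls was 103 and ran from 80 (fed libraries only) to 115 (likelihood ratio test) over the alternatives and from 93 to 100 with each library left out. Astrocytes ran from 28 to 30, oligodendrocytes from 24 to 27 and the small classes from 73 to 87. None of the alternatives run reversed a call. For fed against fasted in the gated classes, 0 calls became 1 with the likelihood ratio test, 1 with no filter on low counts, 1 with nuclei thinned to 4000 UMIs, 0 to 1 with each library left out and 7 with the replicate block. The 1 call was Grik4 in the Sst class in each of these settings other than the block. Over all inhibitory nuclei the replicate block gave 1, and for the 34 genes the block changed no other call. The interaction gave 0 calls, 1 with the likelihood ratio test and 5 with no filter. With gate minimums doubled, 2 combinations of subunit pair and class in place of 7 lay apart in all 5 libraries, Grik4 to Grik5 in the Dnah5 and Grm8 to Grm7 in the Pde1c class, and 0 of the 7 were among them; thinning to 4000 UMIs kept 5 of the 7. The causes were not tested, and the pair counts had no minimum of nuclei in a class. The Sst class with gate minimums doubled and oligodendrocytes with at least 1500 genes had too few nuclei for a test. Fed and fasted libraries could show only large changes in shallow classes, and with 2 fasted libraries the spread rests on few pools.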

Other observations

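The 2178 inhibitory nuclei that passed no class gate had levels between those of the gated classes for 33 of the 34 genes. The exception was Neto1, at 329 ± 15.9 CPM (SD, n = 5) in these nuclei, where the lowest mean of the 9 classes was 341 ± 27.2 CPM, in the Sst class, so that these values did not differ beyond their spread. Gria3 was at 927 ± 97.5 CPM in the nuclei that passed no class gate, Grin2a at 815 ± 88.2, Grik3 at 275 ± 33.7, Grm8 at 822 ± 50.8 and Shisa6 at 86.7 ± 15.0 CPM.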
